A study of Mus musculus with 6 samples.

Results

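The genes described here were 8 complement genes, *C1qa*, *C1qb*, *C1qc*, *C3*, *Cfb*, *Cfp*, *C3ar1* and *C5ar1*, chosen by name from the 34187 gene features of the deposited count matrices, and all 8 were found there. They were followed in macrophages, dendritic cells, fibroblasts and tumor cells across the treatments of a study of engineered cytokines. Male and female C57BL/6 mice carried subcutaneous 6694c2vTRP1 tumors, a transplanted pancreatic ductal adenocarcinoma line. They received PBS, mono-IL10 (a monomeric interleukin-10, 26 µg per mouse) or IL10/2-Trikine (an interleukin-10 built to engage the interleukin-2 receptor as well, 30.6 µg per mouse), in 2 doses from day 8. Tumors were taken on day 14, CD45+ cells were isolated with beads, the cells of each mouse were stained with a hashtag antibody of their own, and each treatment group was pooled into 1 library for droplet-based 5′ single-cell RNA sequencing. Each group held 5 mice by their hashtags, 15 in all. The mouse was the replicate, the library and the treatment cannot be told apart, the masses of the agents differed, and the PBS mice served as controls for both agents.

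Complement is a cascade of plasma and tissue proteins that tags surfaces and calls in leukocytes. C1q, built from the chains encoded by *C1qa*, *C1qb* and *C1qc*, is the recognition part of the classical pathway and is made mainly by macrophages and immature dendritic cells rather than by the liver. C3 is the component on which all activation routes converge, factor B (*Cfb*) supplies the protease of the alternative pathway convertase, and properdin (*Cfp*) stabilizes that convertase and is made by myeloid cells. C3aR (*C3ar1*) and C5aR1 (*C5ar1*) are receptors that sense the small fragments released from C3 and C5 and are carried by myeloid cells.

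The members were unlike in where they were expressed, so the bases just before 4 of their starts are shown: *C1qb* and *C1qc*, neighbors on chromosome 4 whose levels moved together over clusters, *C5ar1*, the receptor that rose in macrophages after both agents, and *C3*, the member highest in tumor cells. The windows are the 250 bases before the transcript start in RefSeq, build GRCm38.p6, all on the minus strand and written 5′ to 3′, while the counts themselves were made on GRCm39. They lie at chr4:136886201-136886450 (*C1qb*), chr4:136892915-136893164 (*C1qc*), chr7:16259339-16259588 (*C5ar1*) and chr17:57228137-57228386 (*C3*). Capitals mark the single match to a searched motif.
C1qb: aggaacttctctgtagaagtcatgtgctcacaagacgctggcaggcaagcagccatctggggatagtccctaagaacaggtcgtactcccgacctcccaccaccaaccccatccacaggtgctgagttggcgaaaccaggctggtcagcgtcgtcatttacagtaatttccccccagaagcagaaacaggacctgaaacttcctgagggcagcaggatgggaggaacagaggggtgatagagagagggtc
C1qc: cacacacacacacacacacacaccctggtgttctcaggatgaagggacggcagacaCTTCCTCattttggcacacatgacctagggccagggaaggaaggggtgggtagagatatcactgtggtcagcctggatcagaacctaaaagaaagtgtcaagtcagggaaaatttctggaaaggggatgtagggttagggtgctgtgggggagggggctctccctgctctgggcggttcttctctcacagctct
C5ar1: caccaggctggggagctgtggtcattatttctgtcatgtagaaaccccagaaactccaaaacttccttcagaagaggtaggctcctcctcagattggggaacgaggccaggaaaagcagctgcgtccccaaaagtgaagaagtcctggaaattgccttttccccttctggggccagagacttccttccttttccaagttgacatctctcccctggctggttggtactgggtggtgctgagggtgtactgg
C3: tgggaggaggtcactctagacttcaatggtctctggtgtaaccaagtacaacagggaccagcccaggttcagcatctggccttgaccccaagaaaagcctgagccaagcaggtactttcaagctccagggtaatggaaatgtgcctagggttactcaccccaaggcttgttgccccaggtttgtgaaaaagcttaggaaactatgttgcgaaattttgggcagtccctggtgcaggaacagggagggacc

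Of the 8 members, 6 had such a window, and *C1qa* and *Cfb* are named only. Both strands were searched for GAGGAAG, letters bound by PU.1, a factor of myeloid cells, for TGCTGAC, part of sites for MAF factors, for TTCNNNGAA, the core bound by STAT proteins, and for a form of NF-κB sites. The share of all 32536 windows of the same length with a match was 10.7% for the first, 3.79% for the second, 7.04% for the third and 0.36% for the last. Among the members the only match was GAGGAAG on the opposite strand in *C1qc*, starting 194 bases before the start. A match or its lack describes these letters in this window and nothing about binding.

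The PBS library held 44412 barcodes, the mono-IL10 library 30528 and the IL10/2-Trikine library 55504, with 5198 to 8078 median UMIs per barcode, and library pairs shared 408 to 700 barcode sequences. The PBS and IL10/2-Trikine libraries held more barcodes than the number of cells given as loaded, so a barcode there may not stand for 1 cell. Cells that were not hashtag doublets were grouped into 60 clusters by genes other than complement genes, and clusters were named from marker lists. The class called macrophages here, which includes monocytes, held 8037 cells with a mouse in PBS, 6430 with mono-IL10 and 5407 with IL10/2-Trikine. Dendritic cells numbered 793, 440 and 364 in the same order, fibroblasts 375, 289 and 445, and tumor epithelial cells 5254, 4731 and 10836. The samples were labelled as CD45+ infiltrating lymphocytes, yet tumor epithelial-like cells made up 33.9 to 55.0% of the clustered cells. Depth differed: macrophages had a median of 5079 UMIs per cell in PBS, 6451 with mono-IL10 and 2866 with IL10/2-Trikine. Levels are given as CPM, the UMIs of a gene summed over the cells of a class in 1 mouse and scaled to a common total of all UMIs, and errors are the SD over mice.

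The 3 C1q chains marked macrophages. Over all 15 mice *C1qa* stood at 2441 ± 322 CPM in macrophages, 772 ± 273 in dendritic cells, 44.6 ± 34.2 in fibroblasts and 17.1 ± 14.2 in tumor cells. *C1qb* stood at 2712 ± 352 in macrophages and 880 ± 288 in dendritic cells, and *C1qc* at 1850 ± 232 and 596 ± 217. No macrophage value of any chain was as low as a dendritic value. Below dendritic cells, the ranges of mice in neighboring classes overlapped, with the exception of *C1qb* between dendritic cells and neutrophils.

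Fibroblast and tumor values of C1q were near those of cells that should lack it. In the T and NK cells annotated by the authors, *C1qa* was 40.1 ± 15.3 CPM, within the spread of the fibroblast mice and above the tumor mean. After each cell was thinned to 2000 UMIs, *C1qa* was seen in 84.5% of macrophages in PBS, 89.7% with mono-IL10 and 91.1% with IL10/2-Trikine (without thinning 88.1, 92.7 and 93.2%). In T and NK cells, with median depths of 2604 to 4152 UMIs, the thinned share was 6.62 to 8.12%. It was 3.46 to 5.33% in fibroblasts, with median depths of 5944 to 19140 UMIs, and 1.42 to 3.59% in tumor cells, with median depths of 10051 to 35619 UMIs. Without thinning, the order depended on the group: the share was 13.3, 11.1 and 8.31% of fibroblasts, 13, 9.28 and 8.79% of tumor cells and 10.6, 11.9 and 10.3% of T and NK cells in PBS, mono-IL10 and IL10/2-Trikine. Cells of the deeper classes lose more UMIs in thinning, and a fixed amount of RNA from outside a cell gives them a lower CPM, so expression in fibroblasts and tumor cells cannot be told apart from such RNA here. In dendritic cells the thinned share was 42.2% in PBS, 38.9% with mono-IL10 and 52.7% with IL10/2-Trikine, above the share in T and NK cells. The 4 dendritic clusters differed: *C1qa* was at 1413 CPM in cluster 9 (532 cells), 396 in the mature and 344 in the type 1 cluster, and 107 in cluster 39, the largest (782 cells). The naming of dendritic clusters did not screen them against macrophage markers.

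*C3*, the central component, was highest in tumor cells, which held 769 ± 127 CPM, and the lowest tumor mouse, at 536 CPM, was above the highest mouse of any other class, a fibroblast value of 524 CPM. Neutrophils (281 ± 69.9, 11 mice with enough cells), fibroblasts (229 ± 151), macrophages (141 ± 32.2) and dendritic cells (68.2 ± 34.3) followed, each overlapping the next. T and NK cells held 10.4 ± 10.1. At 2000 UMIs a cell, *C3* was seen in 61.0% of tumor cells in PBS, 57.8% with mono-IL10 and 64.9% with IL10/2-Trikine, against 1.29 to 2.61% of T and NK cells. *Cfb*, the partner of C3 in the alternative pathway, was a low transcript with the same top class. It stood at 15.1 ± 1.49 CPM in tumor cells, 6.79 ± 5.19 in fibroblasts, 4.79 ± 2.44 in macrophages and 2.6 ± 2.73 in dendritic cells, and tumor and fibroblast mice overlapped. A thinned tumor cell held a *Cfb* UMI in 2.62 to 3.14% of cases, while 0 of 317 T and NK cells in PBS did, which allows up to 0.946% of cells with a UMI at this depth and sets no limit on cells that express the gene.

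Properdin was shared by macrophages and dendritic cells. *Cfp* stood at 383 ± 70.7 CPM in dendritic cells and 380 ± 51.9 in macrophages, with overlapping mice, and at 11.3 ± 6.36 in fibroblasts, 4.94 ± 1.54 in tumor cells and 6.22 ± 2.95 in T and NK cells. The receptor *C3ar1* was highest in macrophages, at 262 ± 24.8 CPM, followed by dendritic cells at 87.3 ± 32.9, and no macrophage mouse overlapped a dendritic one. *C5ar1* was highest in neutrophils, at 691 ± 127 CPM, which overlapped macrophages at 401 ± 61.6, with dendritic cells lower at 143 ± 49.4. In tumor cells *C3ar1* was 2.12 ± 1.69 and *C5ar1* 5.46 ± 3.29, against 1.85 ± 2.6 and 3.32 ± 3.27 in T and NK cells, with overlapping mice.

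**Figure D1:**
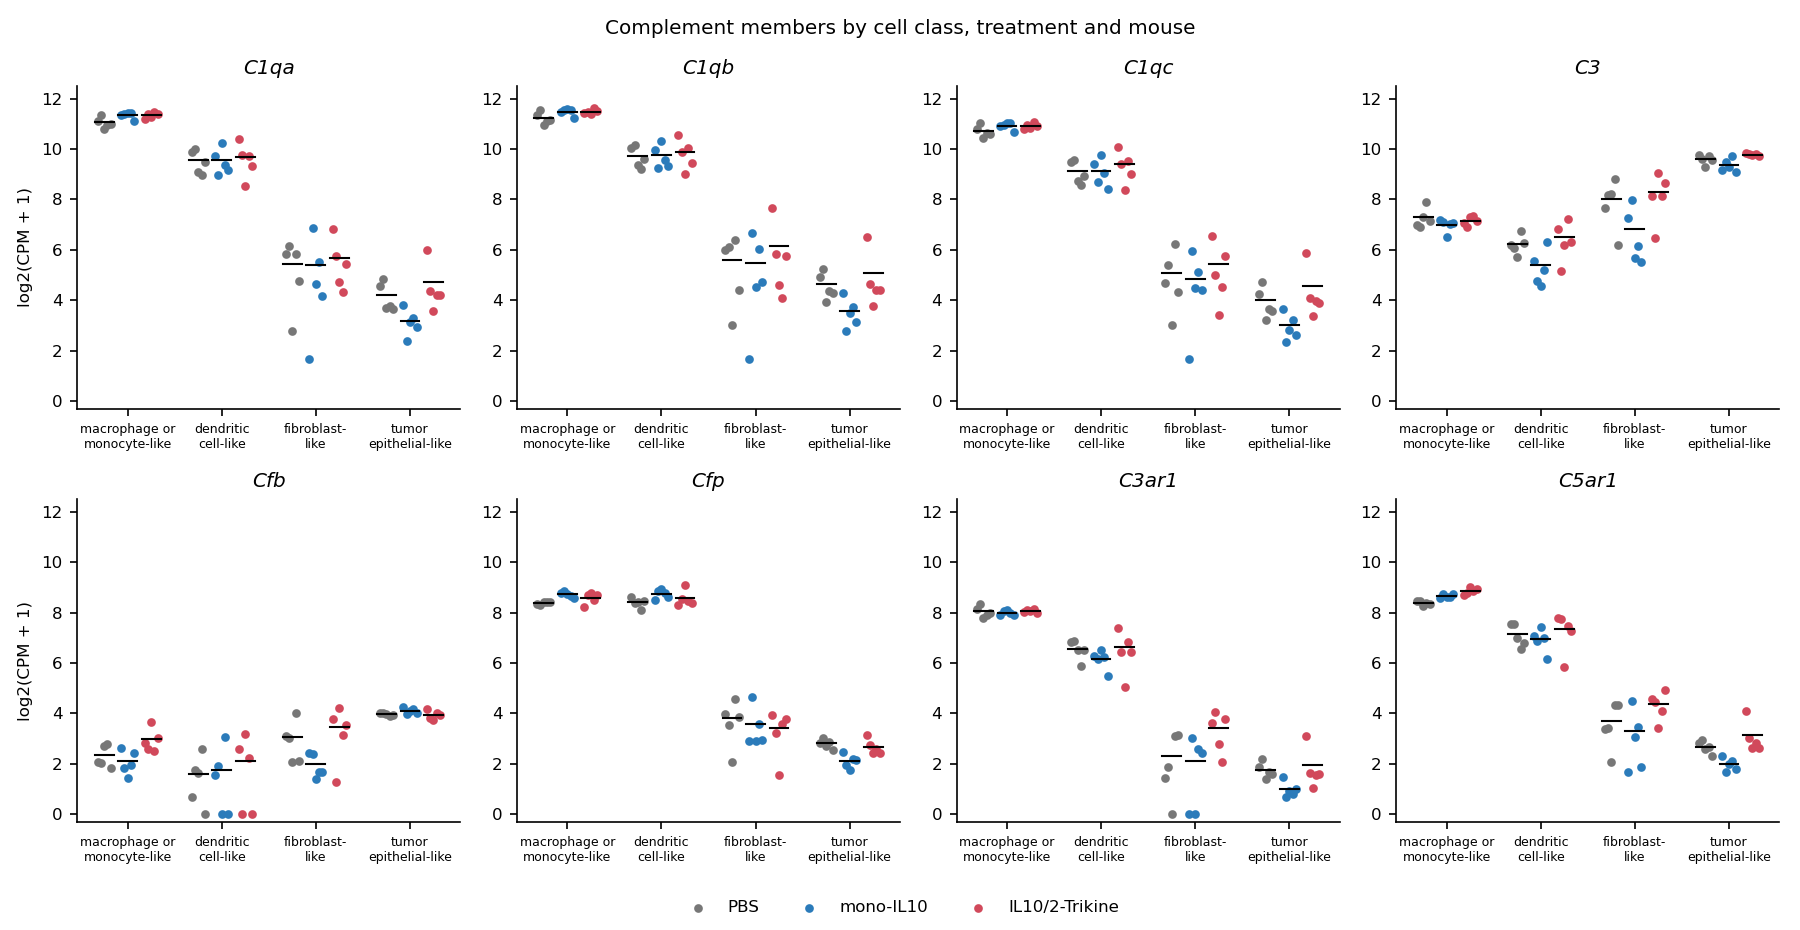
Each point is 1 mouse, the x axis gives the 4 cell classes, the y axis log2(CPM + 1), colors the treatments and black lines the group means. The C1q chains fall from macrophages (2441 CPM for *C1qa*) to tumor cells (17.1 CPM), *C3* and *Cfb* are highest in tumor cells, and *Cfp* is level between macrophages and dendritic cells.

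Expressed as a percent of the macrophage level, the members divided into those that followed macrophage markers and those that did not. In dendritic cells, *C1qa* was at 35.2% of its macrophage level in PBS, 29.0% with mono-IL10 and 31.4% with IL10/2-Trikine, *C3ar1* at 27.9 to 36.3% and *C5ar1* at 30.8 to 41.9%. The 9 macrophage markers (*Adgre1*, *Csf1r*, *Cd68*, *Mrc1*, *Mertk*, *Ms4a7*, *Trem2*, *Apoe*, *Fcgr1*) had a median of 33.9, 30.2 and 35.9% in these dendritic cells, none was at 0, and they summed to 3646 to 10068 CPM against 14009 to 20281 in macrophages. *Cfp* was apart from them at 103, 101 and 99.0%. What part macrophage RNA had in the dendritic values of C1q was not tested. In fibroblasts *C1qa* was at 2.01, 1.57 and 1.94% beside a marker median of 2.1, 1.65 and 3.39%. *C3* in macrophages stood at 20.3, 19.2 and 16.1% of its tumor level, while the tumor markers measured in macrophages had a median of 0.752, 0.596 and 1.55% of theirs and a highest marker at 34.1, 31.7 and 4.07%.

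**Figure D2:**
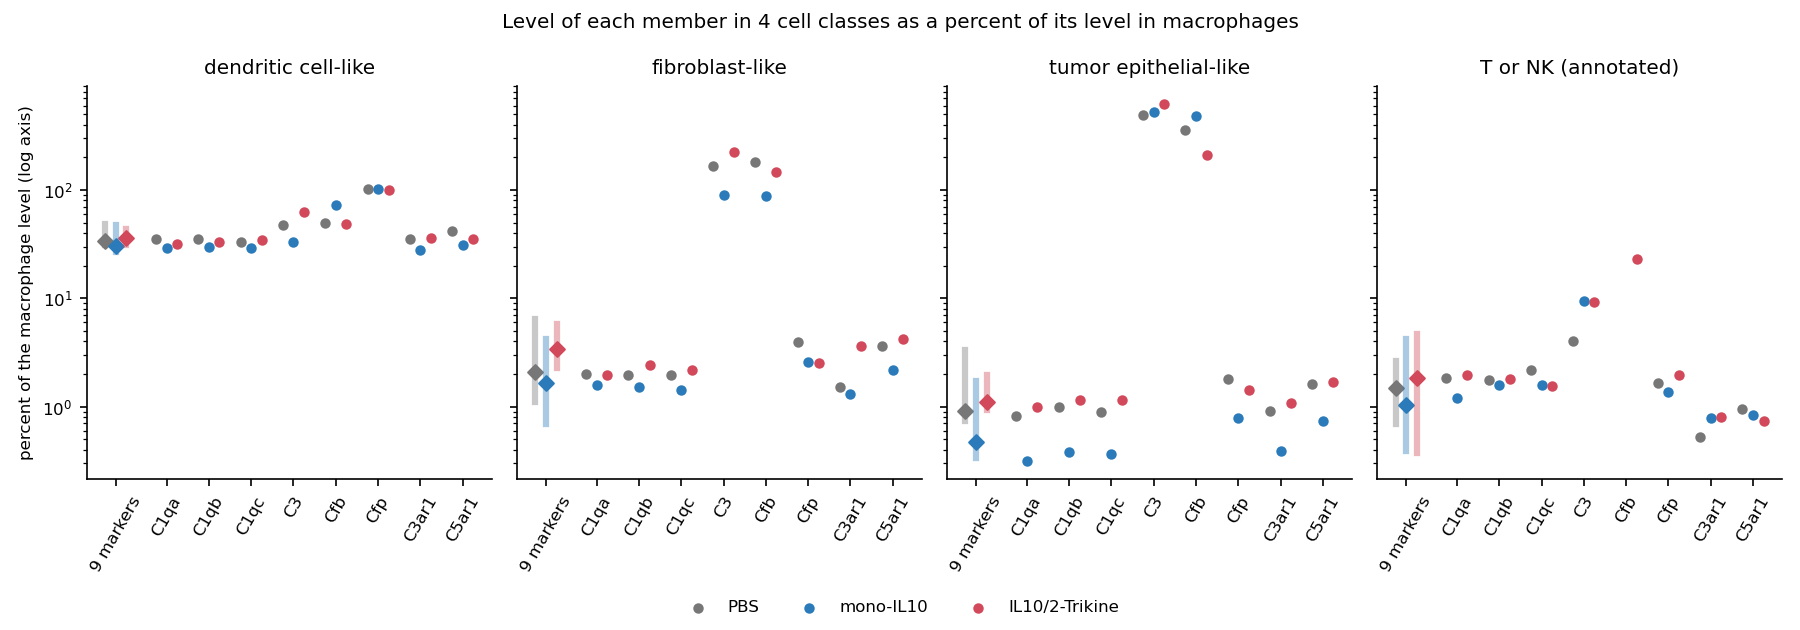
The y axis, on a log scale, gives the level in a class as a percent of the level in macrophages of the same treatment. Circles are the members, and diamonds with bars are the median and the lowest to highest of 9 macrophage markers. In dendritic cells the C1q chains and receptors lie by the markers and *Cfp* near 100%, and in tumor cells only *C3* and *Cfb* lie far above the markers. *Cfb* in T and NK cells of PBS and mono-IL10 was 0 and is not drawn.

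In macrophages the agents were compared with PBS and with each other. *C5ar1* rose after both agents, by 1.42-fold with IL10/2-Trikine and 1.28-fold with mono-IL10. *Cfp* and the 3 C1q chains rose after mono-IL10, by 1.24- to 1.36-fold, and *C1qa* after IL10/2-Trikine by 1.24-fold, while *C3*, *Cfb* and *C3ar1* passed the test in no comparison. All p-values adjusted here come from edgeR's quasi-likelihood test on UMI counts summed per mouse, with Benjamini-Hochberg adjustment over all genes tested and a threshold of 0.05.

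*C5ar1*, the receptor for C5a, read 350, 350, 310, 330 and 328 CPM in the PBS mice. It read 381, 432, 388, 391 and 425 in the mono-IL10 mice and 420, 442, 516, 467 and 487 in the IL10/2-Trikine mice. Every treated mouse was above every PBS mouse, and the 2 treated groups overlapped each other. The log2 fold change was 0.51 ± 0.07 (SE) for IL10/2-Trikine against PBS (adjusted p = 4.88e-05) and 0.36 ± 0.06 for mono-IL10 against PBS (adjusted p = 0.000534). Between the agents it was 0.15 ± 0.07 (adjusted p = 0.187). Both calls against PBS held with each mouse left out in turn.

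*Cfp* read 321, 315, 345, 339 and 338 CPM in PBS, 436, 462, 432, 399 and 387 in mono-IL10 and 301, 411, 442, 361 and 413 in IL10/2-Trikine. All mono-IL10 mice were above all PBS mice, whereas 1 IL10/2-Trikine mouse was below every PBS mouse. The change was 0.44 ± 0.09 with mono-IL10 (adjusted p = 0.00107), kept with each mouse left out, and 0.24 ± 0.09 with IL10/2-Trikine (adjusted p = 0.0737).

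*C1qa* read 2221, 2594, 1798, 1972 and 2039 CPM in PBS, 2589, 2707, 2781, 2729 and 2203 with mono-IL10, and 2350, 2679, 2500, 2800 and 2651 with IL10/2-Trikine. The groups overlapped: 2 PBS mice were above the lowest mono-IL10 mouse, and 1 was above the lowest IL10/2-Trikine mice. The change was 0.38 ± 0.10 with mono-IL10 (adjusted p = 0.0107) and 0.31 ± 0.10 with IL10/2-Trikine (adjusted p = 0.0429). The first was kept with each mouse left out. The second was lost in 11 of the 15 fits that left out a mouse, and with at least 2000 genes required per cell it was 0.08 (adjusted p = 0.768). *C1qb*, with 2408 ± 382 CPM in PBS and 2864 ± 283 in mono-IL10, changed by 0.34 ± 0.11 (adjusted p = 0.0285), and *C1qc*, with 1666 ± 263 and 1949 ± 191, by 0.31 ± 0.11 (adjusted p = 0.041). These calls were lost in 6 and 8 of the 15 fits. With IL10/2-Trikine the log2 values were 0.28 ± 0.11 for *C1qb* (adjusted p = 0.092) and 0.24 ± 0.11 for *C1qc* (adjusted p = 0.141), short of the threshold.

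*C3* in macrophages spanned 119 to 238 CPM in PBS, 89.4 to 145 with mono-IL10 and 119 to 159 with IL10/2-Trikine, and *C3ar1* spanned 220 to 325, 239 to 276 and 255 to 282. *Cfb* was at 4.11 ± 1.56 CPM in PBS, 3.34 ± 1.42 with mono-IL10 and 6.92 ± 2.74 with IL10/2-Trikine, from 114 to 197 UMIs a group. Its largest difference was between the agents, 0.84 ± 0.32 (adjusted p = 0.117).

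Against the background of all 12635 genes tested, the members were called at 2 of 8 for IL10/2-Trikine versus PBS (14.5% of all genes) and 5 of 8 for mono-IL10 versus PBS (21.7%). Between the agents edgeR called 0 of 8 (7.92% of all genes), and DESeq2 called 0. At an unadjusted p under 0.05 stood 3 of 8 there, beside 2774 of the 12635 genes. The median log2 fold change of the members was 0.26, 0.33 and -0.03 in these comparisons, beside 0.003, -0.008 and 0.01 over all genes. Without PBS mouse 2, the highest for all 3 C1q chains in its group, 4 of 8 were called for IL10/2-Trikine versus PBS, and without mono-IL10 mouse 1, 1 of 8 between the agents. The share of all genes called in these fits is not given. Tumor markers, as a sign of RNA from tumor cells, were higher in macrophages of IL10/2-Trikine for 4 of 5 tested markers against either other group (sums of 43.4 to 101 CPM, against 30.8 to 55.1 in PBS and 30.1 to 37.6 in mono-IL10), and their part in the member values was not tested. Of the 9 macrophage markers, 2 rose with IL10/2-Trikine and 3 with mono-IL10 against PBS.

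**Figure D3:**
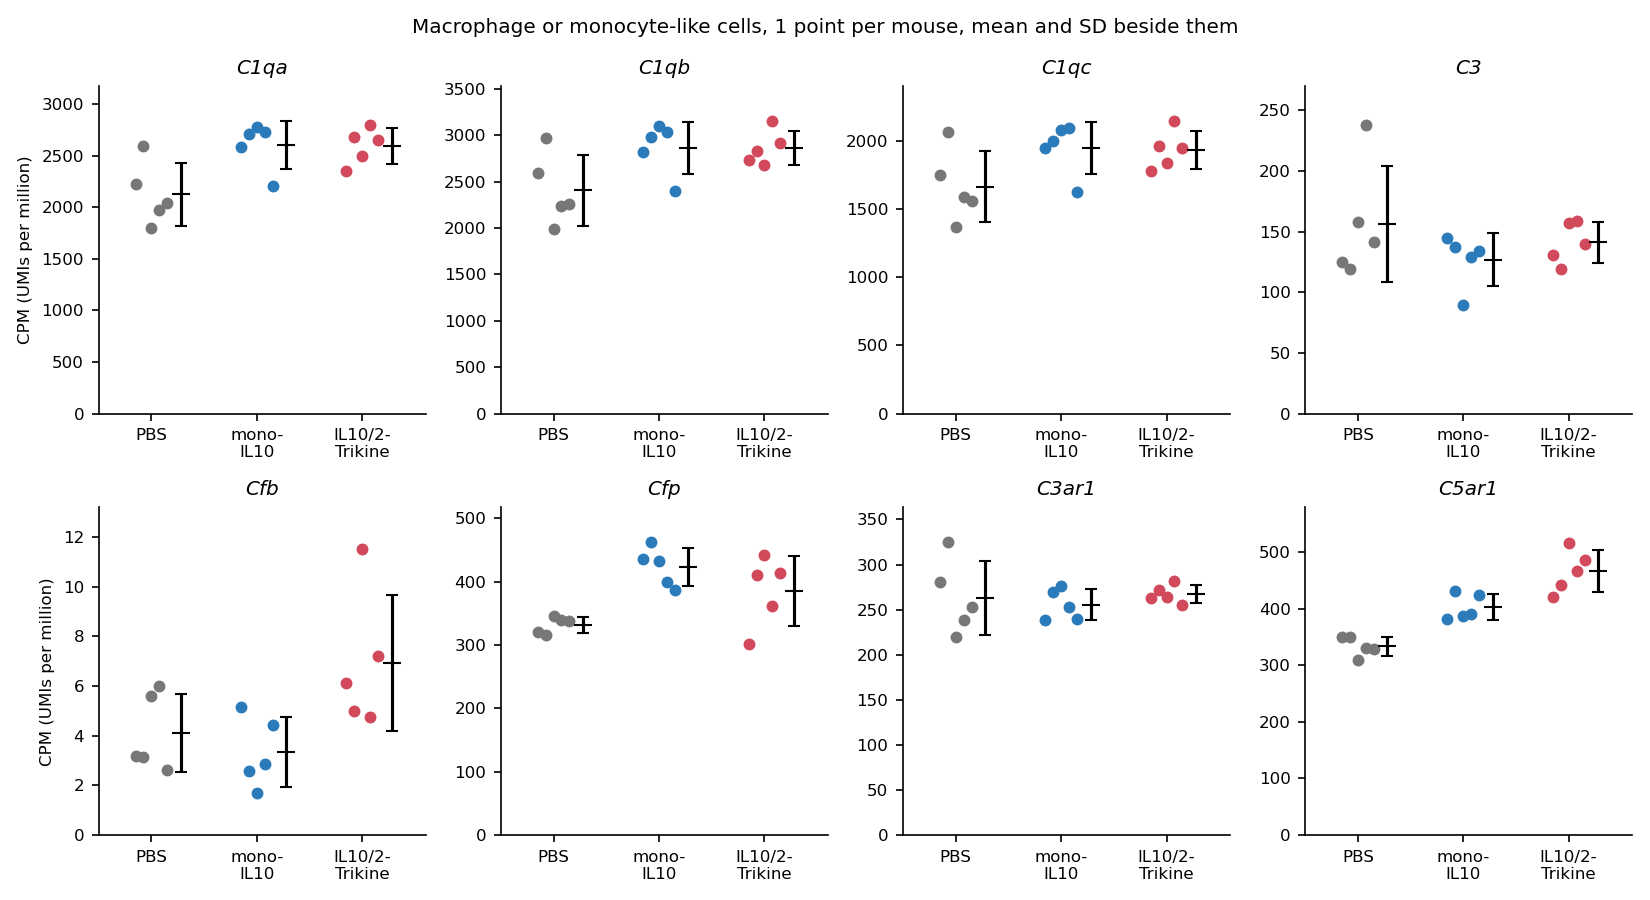
CPM of each member in macrophage or monocyte-like cells, 1 point per mouse, with the group mean and SD beside the points and a y axis from 0. *C5ar1* is higher in every treated mouse than in any PBS mouse (310 to 350 CPM), *Cfp* is higher in every mono-IL10 mouse (387 to 462), and *C3ar1* overlaps throughout.

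The macrophage class was not the same mixture in each library. Cluster 22, led by *Cx3cr1* and *Hpgds*, held 1899 PBS cells and 305 and 374 of the treated groups. Cluster 34, led by *Fcrls*, *Pf4* and *Nrg1* and with *Cd163*, *Folr2* and *Ccl8* among its top 10 genes, held 1512 mono-IL10 cells against 255 in PBS and 318 in IL10/2-Trikine, and cluster 21, led by *Pf4*, held 2126 IL10/2-Trikine cells against 813 and 519. With 1 library a group, a cluster mostly of 1 library may be that library rather than a kind of cell. Monocyte-like cells, low in C1q, made up 2.99 ± 1.03% of the class in PBS, 2.08 ± 1.01% with mono-IL10 and 1.16 ± 0.695% with IL10/2-Trikine. IL10/2-Trikine minus PBS was -1.83 percentage points (exact two-sided permutation test over mice, p = 0.0238, adjusted over 3 tests 0.0714). In bulk sums of a class, a different mix of cells and a different amount of RNA per cell cannot be told apart.

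C1q varied more between kinds of macrophage than between treatments. In PBS, *C1qa* averaged 3183 ± 256 CPM in Cd163-type clusters, 2554 ± 212 in Cx3cr1-type, 1297 ± 398 in Arg1-type and 442 ± 114 in monocyte-like clusters, so the Arg1-type and Cd163-type mice did not overlap. *C3ar1* followed the same order, at 454 ± 56.0, 291 ± 28.6, 182 ± 54.0 and 179 ± 96.0, with the last 2 overlapping each other and Cx3cr1-type mice. *Cfp* did not: monocyte-like clusters held 463 ± 62.5, beside 520 ± 80.4 in Cd163-type, 325 ± 33.4 in Cx3cr1-type and 311 ± 19.9 in Arg1-type clusters. Kinds were set by marker lists, with *Arg1*, *Spp1*, *Vegfa*, *Slc2a1*, *Ero1a* and *Hmox1* for the Arg1-type. That kind pooled clusters 1, 16, 30 and 47, and *Arg1* was among the top 10 genes of cluster 47 only. All libraries together, *C1qa* was at 2270, 624, 2060 and 1212 CPM in them, beside 2116 in Cx3cr1-type cluster 50. Cluster 30 was led by the interferon-induced genes *Rsad2* and *Ifit2*.

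Fitted apart after the data had been seen, the kinds of macrophage gave fewer calls against PBS, though not smaller changes throughout. Between the agents, Cx3cr1-type clusters gave 1 call where the whole class gave 0. Cluster 34, which the rule gave no kind although it shares *Cd163*, *Folr2* and *Ccl8* with the Cd163-type cluster, entered none of these fits. It held 3.19% of the class in PBS, 23.5% with mono-IL10 and 5.74% with IL10/2-Trikine. All libraries together, it held 2950 CPM of *C1qa*, 3188 of *C1qb*, 2210 of *C1qc*, 485 of *Cfp* and 445 of *C5ar1*. The PBS means of the whole class were 2125, 2408, 1666, 332 and 334. *C3ar1* was at 330 beside 263, and *C3* at 118 beside 156. The part of this cluster in the calls of the whole class was not tested. In Cx3cr1-type clusters *C5ar1* rose with IL10/2-Trikine, from 315 ± 14.3 in PBS and 336 ± 30.4 in mono-IL10 to 453 ± 39.7 CPM. Clusters 21 and 22 above, filled unequally by the groups, both belong to this kind, where *Cx3cr1* was among the top 10 genes of cluster 22 only. All libraries together, *C5ar1* was at 463 CPM in cluster 21, 322 in cluster 22, 337 in cluster 50 and 272 in cluster 6. Median depth was 2479 UMIs in cluster 21 and 5298.5 in cluster 22. The part of this filling in the *C5ar1* change was not tested. Over the whole kind the log2 change of *C5ar1* was 0.58 ± 0.07 against PBS (adjusted p = 1.11e-05) and 0.41 ± 0.07 against mono-IL10 (adjusted p = 0.00276), so 1 of 8 members was called in each, beside 14.6% and 5.73% of all genes. *Cfp* rose there with mono-IL10 (0.28 ± 0.10, adjusted p = 0.0463), 1 of 8 beside 18.1%. At an unadjusted p under 0.05, 5 of 8 stood in these clusters for IL10/2-Trikine versus PBS, beside 3194 of all 11234 genes. Between the agents it was 2 of 8 beside 2255 genes, and for mono-IL10 versus PBS 4 of 8 beside 3386. Among these 4, *C3ar1* was lower (-0.245 ± 0.091, adjusted p = 0.0669) and the others were higher. In Arg1-type clusters mono-IL10 gave 2 of 8 calls beside 9.97%, *C1qa* (0.56 ± 0.17, adjusted p = 0.0441) and *Cfp* (0.40 ± 0.11, adjusted p = 0.0243). There 6 of 8 had an unadjusted p under 0.05, beside 2281 of all 9701 genes. *C1qb* (0.50 ± 0.17, adjusted p = 0.0686), *C1qc* (0.50 ± 0.18, adjusted p = 0.0904) and *C5ar1* (0.38 ± 0.12, adjusted p = 0.0584) missed the threshold by edgeR at changes no smaller than the 0.34, 0.31 and 0.36 of the whole class. *C3*, also among the 6, missed it in the other direction, being lower with mono-IL10 (-0.445 ± 0.142, adjusted p = 0.0516). The groups filled these clusters unequally too. Cluster 16, at 624 CPM of *C1qa*, held 895 cells from PBS and 178 from mono-IL10, and cluster 1, at 2270 CPM, held 1032 and 977, and the part of this filling was not tested. IL10/2-Trikine gave 0 of 8 by edgeR there against PBS (4.87% of all genes) and against mono-IL10 (6.55%). At an unadjusted p under 0.05 stood 1 and 2 members, beside 1841 and 2113 of all 9701 genes. Against PBS that member was *C3*, which was lower (-0.444 ± 0.152, adjusted p = 0.102), and against mono-IL10 *Cfp* was lower and *Cfb* higher. Cd163-type clusters gave 0 of 7 tested members by edgeR. Of all genes, 4.95% were called for IL10/2-Trikine versus PBS, 1.08% for IL10/2-Trikine versus mono-IL10 and 8.7% for mono-IL10 versus PBS. At an unadjusted p under 0.05 stood 1, 0 and 2 members in that order, beside 1132, 836 and 1414 of all 6645 genes. For IL10/2-Trikine versus PBS that member was *C3ar1*, which was lower (-0.323 ± 0.116, adjusted p = 0.117). *C5ar1* was at 583 ± 48.4, 577 ± 53.5 and 651 ± 91.3 CPM in those clusters.

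Dendritic cells gave no member past the threshold. *C3* read 71.9, 65.4, 51.1, 105 and 76.9 CPM in PBS, 46.5, 26.3, 22.4, 35.5 and 77.4 in mono-IL10, and 111, 34.8, 72.5, 147 and 79.4 in IL10/2-Trikine. Of the mono-IL10 mice, 4 were below every PBS mouse and 1 was inside their range. The log2 change of mono-IL10 from PBS was -0.82 ± 0.27 (adjusted p = 0.0938) and that of IL10/2-Trikine from mono-IL10 1.06 ± 0.32 (adjusted p = 0.124). Tumor markers in the dendritic cells had a median log2 difference of -0.69 and 1.02 in the same comparisons, with 0 of 5 tested called in either and sums of 90.8 to 197 CPM in PBS, 25.8 to 355 in mono-IL10 and 61.7 to 604 in IL10/2-Trikine, and their part in the *C3* values was not tested. *Cfp* was at 341 ± 43.2 CPM in PBS, 427 ± 51.1 with mono-IL10 and 382 ± 91.1 with IL10/2-Trikine, with a change of 0.40 ± 0.12 for mono-IL10 (adjusted p = 0.0659).

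edgeR called 0 of the 7 members tested in dendritic cells in each comparison, *Cfb* having too few counts to be tested. For IL10/2-Trikine versus PBS, IL10/2-Trikine versus mono-IL10 and mono-IL10 versus PBS, 1.36, 0.838 and 3.98% of 7991 genes were called. At an unadjusted p under 0.05 stood 0, 2 and 2 of the 7 members in that order. Of all 7991 genes, 1042, 1100 and 1371 stood there. DESeq2 called 0, 1 and 0 of the members. The *C3* and *Cfp* calls were near the threshold. With the mature dendritic clusters left out, both were called for mono-IL10 versus PBS. Without mono-IL10 mouse 5 both were called there too, and *C3* between the agents. *Cfp* alone was called for mono-IL10 versus PBS without mono-IL10 mouse 1 or IL10/2-Trikine mouse 3, the latter being in neither group compared. The share of all genes called in these fits is not given. *C1qa* spanned 499 to 1028 CPM in PBS, 501 to 1191 with mono-IL10 and 370 to 1344 with IL10/2-Trikine, overlapping throughout, and macrophage markers gave 1, 0 and 0 calls of 9 in these comparisons.

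Fibroblasts held *C3* at very different levels from mouse to mouse, 201, 288, 292, 445 and 71.8 CPM in PBS, 154, 252, 49.5, 69.6 and 44.2 in mono-IL10, and 281, 87.6, 524, 281 and 401 in IL10/2-Trikine. The mono-IL10 values were the lower ones, but the groups overlapped. The log2 change was 1.5 ± 0.50 for IL10/2-Trikine versus mono-IL10 (adjusted p = 0.098), -1.26 ± 0.49 for mono-IL10 versus PBS (adjusted p = 0.405) and 0.23 ± 0.46 for IL10/2-Trikine versus PBS (adjusted p = 0.892). *Cfb* moved with it in level, at 7.36 ± 4.95, 2.93 ± 1.28 and 10.1 ± 5.99 CPM, from 38, 15 and 28 UMIs, and was not tested, nor was *C3ar1*.

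Of the 6 members tested in fibroblasts edgeR called 0, beside 0.466% of 7943 genes for IL10/2-Trikine versus PBS, 3.47% for IL10/2-Trikine versus mono-IL10 and 0.151% for mono-IL10 versus PBS. At an unadjusted p under 0.05 stood 0, 2 and 1 of the 6 members, beside 1025, 1470 and 742 of all 7943 genes. DESeq2 called 0 of the members in each comparison. Without mono-IL10 mouse 2, the highest of its group, *C3* was called for IL10/2-Trikine versus mono-IL10. Tumor markers moved in the same direction in these cells, with 3 of 4 tested higher in IL10/2-Trikine than in mono-IL10 (sums of 127 to 289 CPM against 31.6 to 87.0, and 62.9 to 212 in PBS), and their part in the *C3* values was not tested.

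Tumor cells held *C3* at 862, 785, 616, 833 and 751 CPM in PBS, 570, 713, 621, 853 and 536 with mono-IL10, and 914, 880, 858, 899 and 840 with IL10/2-Trikine. The IL10/2-Trikine mice lay in a narrow band at the top, overlapping 1 mouse of mono-IL10 and 1 of PBS. *C3* was higher with IL10/2-Trikine than with mono-IL10 by 0.34 ± 0.11 (adjusted p = 0.0217), a 1.26-fold difference kept with each mouse left out. The 3 clusters highest in *C3* were not filled alike: cluster 26 held 7.06% of the tumor cells in PBS, 3.26% with mono-IL10 and 7.96% with IL10/2-Trikine, cluster 57 held 6.19, 5.6 and 5.4%, and cluster 8 held 1.87, 1.8 and 7.22%. Of the other clusters above 1000 CPM, cluster 7 held 6.38, 4.27 and 6.92%, cluster 37 held 9.95, 12.4 and 6.28%, and cluster 55 held 3.12, 4.88 and 3.89%. What part this mixture had in the difference was not tested. Against PBS the change was 0.22 ± 0.11 for IL10/2-Trikine (adjusted p = 0.155) and -0.12 ± 0.11 for mono-IL10 (adjusted p = 0.561). *Cfb* was lower with IL10/2-Trikine than with mono-IL10, at 14.4 ± 1.85 against 16.1 ± 1.38 CPM, by -0.25 ± 0.08 (adjusted p = 0.0263). That call was lost in 5 of the 15 fits that left out a mouse and when mice were thinned to 1 total (-0.15, adjusted p = 0.23).

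The other 6 members were low in tumor cells, with CPM below or overlapping that of T and NK cells, which hold far fewer UMIs per cell. *C1qa* read 22.5, 27.8, 11.8, 12.8 and 11.7 CPM in PBS, 13.1, 4.25, 7.78, 8.79 and 6.71 in mono-IL10, and 63.1, 19.8, 10.9, 17.4 and 17.4 in IL10/2-Trikine. The value of 63.1 belonged to IL10/2-Trikine mouse 1, which also had 2.56 macrophages per tumor cell in the library, against 0.204 to 0.397 in the other mice of its group, 1.04 to 1.79 in PBS and 0.712 to 2.5 with mono-IL10. The 9 macrophage markers summed to 499 CPM in the tumor cells of that mouse, 115 to 168 in the others of its group, 121 to 244 in PBS and 65.9 to 155 in mono-IL10.

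Between the agents 8 of 8 members were called in tumor cells, 7 higher with IL10/2-Trikine and *Cfb* lower, where 33.1% of all 15007 genes were called, and 5 of the 9 macrophage markers were higher too, with a median log2 change of 1.15. *C1qa* changed by 1.52 ± 0.43 (adjusted p = 0.0117) and *C5ar1* by 1.28 ± 0.28 (adjusted p = 0.00212). Without IL10/2-Trikine mouse 1, 5 of 8 were called, and the change was 0.95 for *C1qa* (adjusted p = 0.0284) and 0.93 for *C5ar1* (adjusted p = 0.00103). Mono-IL10 against PBS gave 1 of 8 (6.32% of all genes), *Cfp*, with 6.02 ± 0.881 CPM in PBS and 3.36 ± 0.789 in mono-IL10 and a change of -0.73 ± 0.17 (adjusted p = 0.0202). It was 0 of 8 without mono-IL10 mouse 2 and 5 of 8 without IL10/2-Trikine mouse 1. The latter is in neither group compared and enters only through what the 3 groups share in the fit, such as the spread. The share of all genes called in the fits that left out a mouse is not given, so these counts describe no change particular to the members. IL10/2-Trikine against PBS gave 0 of 8 by edgeR (22.3% of all genes) and 0 by DESeq2. At an unadjusted p under 0.05 it gave 0 of 8, beside 5210 of all 15007 genes.

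**Figure D4:**
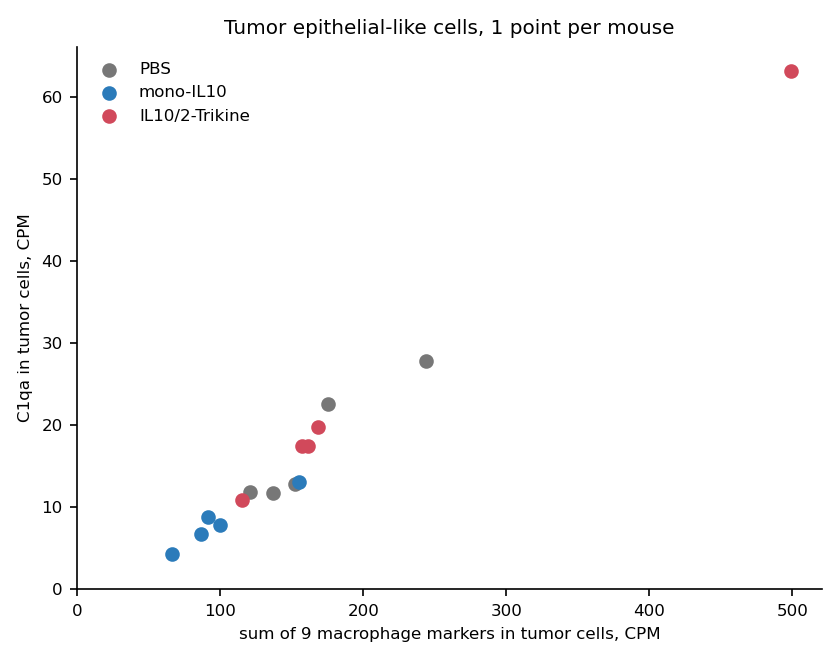
Each point is 1 mouse, with the sum of 9 macrophage markers in its tumor cells on the x axis and *C1qa* in the same cells on the y axis, both in CPM from 0. The points run from a mono-IL10 mouse at the bottom left (65.9 and 4.25 CPM) to IL10/2-Trikine mouse 1 alone at the top right (499 and 63.1 CPM).

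Whether a treatment effect differed between cell classes was tested within mice, as the difference of log2(CPM + 1) between macrophages and dendritic cells or tumor cells, for 8 members and 3 comparisons. None of the 48 exact two-sided permutation tests passed the threshold after adjustment. For 7 of them the 2 groups did not overlap at all, which gave the smallest p that 5 mice against 5 allow (0.00794, adjusted 0.0544). In 6 of these, mono-IL10 was compared with PBS and the macrophage excess over tumor cells was larger by 1.29 for *C1qa*, 1.33 for *C1qb*, 1.19 for *C1qc*, 1.05 for *Cfp*, 0.74 for *C3ar1* and 0.96 for *C5ar1*. The tumor values of these 6 were the low levels described above. In the same comparison the 9 macrophage markers in tumor cells had a median log2 change of -0.86, with 1 called lower. How many other genes separate the groups in this way was not counted. The last was *Cfb* between the agents (1.03). Without IL10/2-Trikine mouse 1, 8 tests passed. The 6 tests of mono-IL10 against PBS do not use that mouse, so their differences and p were unchanged and only the adjustment over the family moved. None of the 24 tests against dendritic cells had an adjusted p under 0.245, so the *C5ar1* and *Cfp* effects of macrophages were not shown to differ from those of dendritic cells.

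Within a class the members varied widely between clusters, all libraries together. Across the 14 tumor clusters *C3* ran from 170 CPM in cluster 12, led by the mitosis genes *Ube2c* and *Birc5*, to 2228 in cluster 26, led by *Ttr* and *Naaladl2*. In cluster 26 *C3* was 2041 ± 260 CPM in PBS, 2074 ± 396 with mono-IL10 (4 mice) and 2223 ± 193 with IL10/2-Trikine, with overlapping mice. Cluster 33, led by *Tff2* and *Tff1*, was apart, with 187 ± 44.9, 221 ± 93.9 and 495 ± 81.6, and its IL10/2-Trikine mice (402 to 626) lay above all others (110 to 344). It held 2.99, 3.17 and 7.35% of the tumor cells, and was picked out after its values were seen. *Cfb* was highest in tumor cluster 55 (24.2 CPM), led by *Iigp1*, *Cxcl11* and *Cxcl9*, interferon-induced genes. Among macrophages it was highest in cluster 30 (15 CPM), led by *Rsad2* and *Ifit2*, of the same kind.

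*C3* of fibroblasts was highest in 1 of their 3 clusters. Cluster 3, led by *Mgp*, *Timp1* and *Serpina3n*, held 563 CPM of *C3* and 16.5 of *Cfb*, against 62.1 and 2.05 in cluster 29 and 36.4 and 0.869 in cluster 40. It made up 23.5% of the fibroblasts in PBS, 20.1% with mono-IL10 and 25.8% with IL10/2-Trikine, and its *C3* was 701 ± 305, 356 ± 323 (2 mice) and 825 ± 418 CPM. Dendritic clusters separated *Cfp* from C1q. Cluster 39, led by *Ccl17*, *Plet1* and *Cd209a*, held 586 CPM of *Cfp*, the most of any cluster, but 107 of *C1qa* and 39.4 of *C5ar1*, while cluster 9 held 393 of *Cfp* and 1413 of *C1qa*. The 2 neutrophil clusters held 773 and 510 CPM of *C5ar1*.

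**Figure D5:**
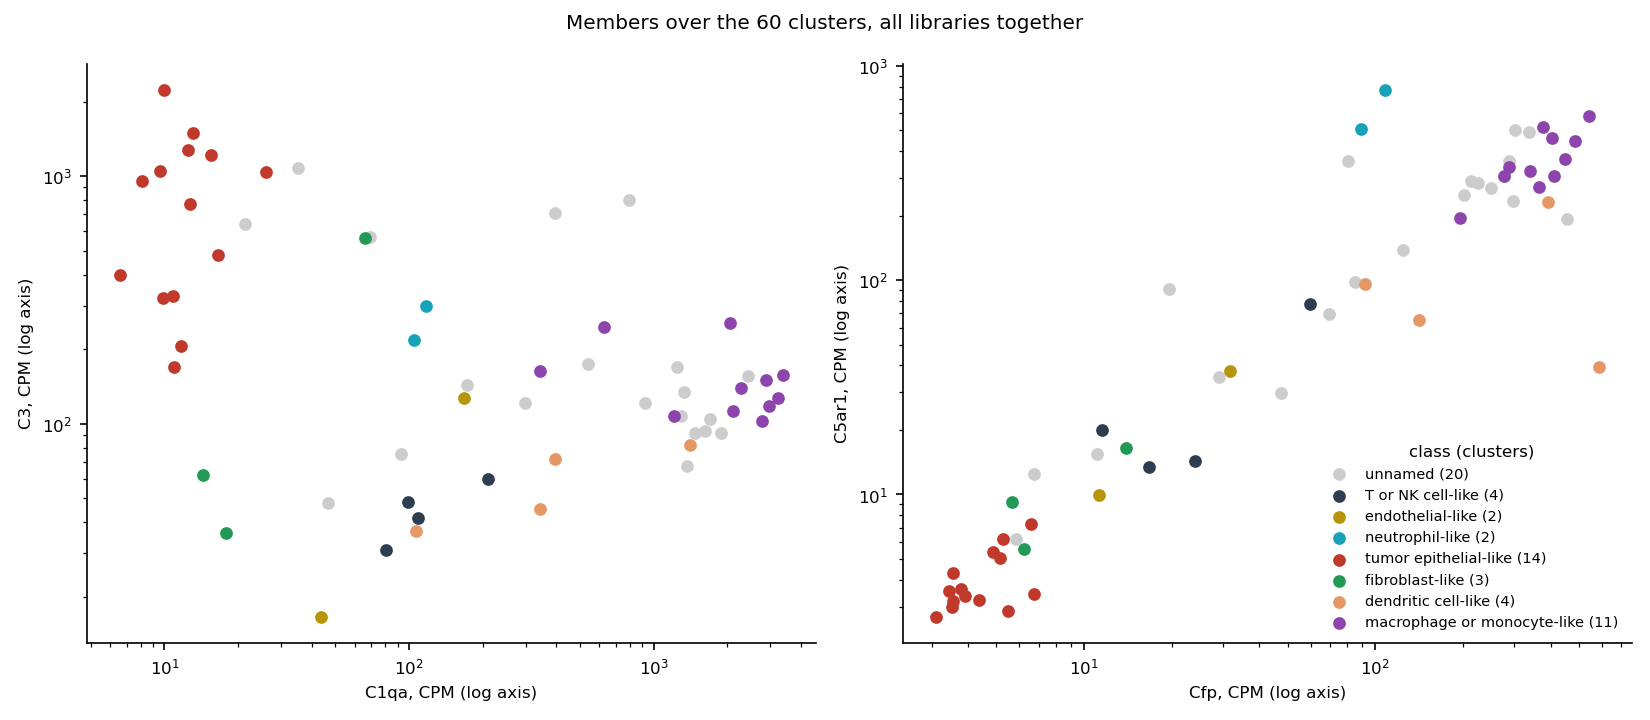
Each point is 1 of the 60 clusters, all libraries together, colored by class, with both axes in CPM on log scales. On the left *C3* is drawn against *C1qa*, with tumor clusters (170 to 2228 CPM of *C3*) apart from macrophage clusters. On the right *C5ar1* is drawn against *Cfp*, with 1 neutrophil cluster (773 CPM of *C5ar1*) above the other points. The second neutrophil cluster (510 CPM) is at the height of the macrophage clusters but to their left, at 89.3 CPM of *Cfp*. Dendritic cluster 39 (586 and 39.4 CPM) lies lower.

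Over the 60 clusters, whose values share libraries, depth and free RNA, the C1q chains had nearly 1 pattern, with a Pearson r of 0.998 between *C1qa* and *C1qb*. *C3ar1* was near it (r of 0.966 with *C1qa*), *Cfp* (0.852) and *C5ar1* (0.821) less so, and *C3* with *Cfb* (0.877) formed a second pattern, at -0.352 between *C3* and *C1qa*. The genes outside complement most like *C1qa* were *Apoe* (0.988), *Mrc1* and *Lgmn* (both 0.973), and *C1qb* and *C1qc* were also nearest to *Apoe*. Among those most like *C3* were *Echdc2* (0.934) and *Onecut2* (0.931), and like *Cfb* they were *Efemp1* (0.898), *Cxcl5* and *Tuft1*. *Cfp* was most like *Cysltr1* (0.98), *Ctss* and *Ly86*, *C3ar1* like *Tlr1* (0.975), *Ms4a7* and *Ms4a4a*, and *C5ar1* like *Il10rb* (0.958), *Lrrc25* and *Rab20*.

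Of 43 other complement genes, listed by pathway, 21 were tested in macrophages. With IL10/2-Trikine 4 rose and 1 fell against PBS, beside the 14.5% called of all genes. *C4b*, the thioester component of the classical pathway, went from 11.9 ± 2.59 to 40.3 ± 9.07 CPM (1.71 ± 0.20, adjusted p = 1.94e-05), and *C6*, of the terminal pathway, from 4.34 ± 1.12 to 13.9 ± 4.21 (1.60 ± 0.24, adjusted p = 0.000202). *Clu*, clusterin, rose by 0.97 ± 0.20 and *Cd93*, a receptor of phagocytes, fell by 0.60. *Clu* is at 2770 to 3732 CPM in tumor cells, and 4 of 5 tested tumor markers were higher in these macrophages, as above. For mono-IL10 against PBS 0 of 5 were called. The part of tumor RNA in the *Clu* values was not tested.

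Mono-IL10 gave 5 higher and 4 lower of the 21 against PBS, beside the 21.7% called of all genes. Among those with the largest changes were *C6* (1.37 ± 0.22), *C4b* (1.26 ± 0.18, from 11.9 to 27.1 CPM), *C1s1* (-1.21 ± 0.33), *Cd59a* (0.83 ± 0.24) and *Clu* (-0.63 ± 0.20). The mice of neither treated group overlapped PBS for *C4b* or *C6*. Between the agents 2 of 21 were called, beside 7.92% of all genes. *Clu* was higher with IL10/2-Trikine (1.59 ± 0.21, adjusted p = 0.000205) and *Cd93* lower (-0.34 ± 0.08, adjusted p = 0.0119). *C4a* and *C4b* are near-identical genes, so reads may have been split between them and the *C4b* values are uncertain.

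In dendritic cells edgeR called 0 of 9 tested genes of the list in each comparison. For IL10/2-Trikine versus PBS, IL10/2-Trikine versus mono-IL10 and mono-IL10 versus PBS, 1.36, 0.838 and 3.98% of all genes were called. At an unadjusted p under 0.05 the list gave 0, 2 and 1 in that order, beside 1042, 1100 and 1371 of all 7991 genes. In fibroblasts 2 of 13 were higher with IL10/2-Trikine than with mono-IL10, *C2*, the classical pathway protease (58.1 ± 11.9 against 23.7 ± 8.95 CPM, 1.19 ± 0.25, adjusted p = 0.012), and *Clu* (2.41 ± 0.43, adjusted p = 0.00456), and 0 in the other comparisons, beside 3.47, 0.466 and 0.151% of all genes. The tumor markers that were higher in these fibroblasts moved with *Clu*, and their part was not tested. In tumor cells, 4 of 23 were called for IL10/2-Trikine versus PBS, beside 22.3% of all genes, *C4b* (0.70 ± 0.17) and *C2* (0.54 ± 0.09) higher and *C4a* (-0.39 ± 0.11) and *Cr1l* (-0.16 ± 0.04) lower. Of the 8 of 23 called between the agents, beside 33.1% of all genes, 7 were higher with IL10/2-Trikine, the largest being *Cd93* (1.57 ± 0.49), *Serping1* (1.44 ± 0.37), *Itgax* (1.26 ± 0.29), *Fcna* (1.0 ± 0.30), *Itgam* (0.95 ± 0.34) and *Itgb2* (0.75 ± 0.25), most of them genes of leukocytes. With mono-IL10 and IL10/2-Trikine they were low, at 0.644 and 2.2 CPM for *Cd93*, 0.226 and 0.659 for *Serping1*, 1.37 and 3.64 for *Itgax*. *Fcna* was at 0.278 and 0.595, *Itgam* at 2.32 and 5.01 and *Itgb2* at 1.92 and 3.54. As above, 5 of the 9 macrophage markers were higher in these tumor cells too. Their sum stood apart in IL10/2-Trikine mouse 1, at 499 CPM, and their part was not tested. Mono-IL10 versus PBS gave 3 of 23 lower, beside 6.32% of all genes, *Cd93* (-1.78 ± 0.47), *Itgax* (-1.02 ± 0.29) and *Itgb2* (-0.96 ± 0.24). In PBS these were at 2.39, 2.99 and 4.02 CPM. *C2* was at 16.3 ± 1.02 CPM in PBS, 15.4 ± 1.91 with mono-IL10 and 23.5 ± 3.0 with IL10/2-Trikine, and no IL10/2-Trikine mouse overlapped the others.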

How the data were processed

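The deposited matrices held raw UMI counts per gene and barcode, made by the authors with Cell Ranger 9.0.1 (per the file headers) on GRCm39 with its filtered barcodes, with 1 matrix per treatment that holds both the genes and 5 hashtags. The labels also name Seurat 5.1.0 and DESeq2 1.46.0. From a deposited metadata table only the cell annotation of T and NK cells was used, and its 7858 cells from a treatment outside the samples used here were left out.

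Barcodes passed with 1000 or more genes and mitochondrial UMIs of 10% or less (34518 for PBS, 24060 for mono-IL10, 46104 for IL10/2-Trikine). Hashtags were called with HTODemux (Seurat 5.3.0, quantile 0.99): 11.6, 8.64 and 13.3% were doublets and were removed, and 21.4, 17.3 and 30.2% carried no call, were clustered and entered no sum per mouse. Log-normalized values over 2000 variable genes without complement genes gave 40 principal components and 60 k-means clusters (scikit-learn 1.9.0, Python 3.11.15). A cluster was named from its marker lists at a score of at least 0.25 with the next lineage at no more than 0.25 of it, a limit tightened after the clusters were seen, when the lists of macrophage kinds were also dropped from the lineage test. Macrophage, monocyte and dendritic lists counted as the same lineage in that test, so dendritic clusters were not screened against macrophage markers. By this rule 20 of 60 clusters stayed unnamed and were not used. The members, gene lists and tests were chosen with earlier results of these data known.

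UMI counts were summed per mouse and class (at least 10 cells) and fitted for all 3 groups together with edgeR 4.0.16 (TMM, filterByExpr, quasi-likelihood test, R 4.3.3), with Benjamini-Hochberg adjustment over all genes tested. The mouse numbers are hashtags, and p-values measure the spread between mice of 1 library per group. Named were all 8 members, of the listed complement genes up to 6 called ones per comparison by size of change, and per member the 3 most similar genes, of which a few are not reported here. On simulated counts with 100 genes changed 2-fold, 87 were called in macrophages (12635 genes), 79 in dendritic cells (7991), 80 in fibroblasts (7943) and 89 in tumor cells (15007). Intervals and shares cover counting error only. Other settings tried were DESeq2 1.42.0, its size factors, no filter on low counts, at least 2000 genes, another clustering, a hashtag margin rule, thinning, and leaving out each mouse, and those chosen after seeing the data were naming by the best list alone and each kind of macrophage alone. Promoter windows came from RefSeq.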

Additional observations from a re-analysis of the deposited data

Results flagged for a closer look

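In 87 groups of 5 mice, the highest or lowest mouse was compared with its nearest neighbor, and 8 stood apart by Dixon's criterion at 0.71 of the range, where chance marks about 1 group in 20. Of these, 5 were tumor cells of IL10/2-Trikine mouse 1, with 63.1 CPM of *C1qa*, 88.9 of *C1qb*, 57.8 of *C1qc*, 7.51 of *C3ar1* and 16 of *C5ar1*. The same mouse held the highest fibroblast value of *C1qb* in its group, 200 CPM. The macrophage marker sum in its tumor cells was 499 CPM, against 115 to 168 in the others of the group, and its part in the member values was not tested. In dendritic cells *Cfp* of IL10/2-Trikine mouse 3 stood at 540 CPM, with the rest of the group at 311 to 375. In fibroblasts *Cfp* of mono-IL10 mouse 2 stood at 24.4 CPM.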

How the results depend on the processing

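No member call turned its direction under an alternative run. Members short of the threshold did, such as *C1qb* (-0.02) and *C1qc* (-0.045) for IL10/2-Trikine versus PBS in Cd163-type clusters. Counts of members past the threshold moved as follows. Except for the kinds of macrophage above, the share of all genes called under each setting is not given. A count may thus have moved with the calls over all genes. In dendritic cells, IL10/2-Trikine versus mono-IL10 gave 1 by DESeq2, 1 with 30 components and 40 clusters, 3 with at least 2000 genes per cell and 2 with no filter on low counts in place of 0, and mono-IL10 versus PBS gave 1 with at least 2000 genes, 2 by the best list alone, 2 with no filter and 2 without mature clusters in place of 0. In fibroblasts, IL10/2-Trikine versus mono-IL10 gave 1 with the hashtag margin rule and 1 with no filter, and mono-IL10 versus PBS 1 with no filter, in place of 0. In macrophages, IL10/2-Trikine versus PBS gave 0 in Arg1-type and 0 in Cd163-type clusters and 1 in Cx3cr1-type clusters, with at least 2000 genes, by the best list and with no filter, in place of 2. IL10/2-Trikine versus mono-IL10 gave 1 in Cx3cr1-type clusters, with at least 2000 genes and by the best list, in place of 0. Mono-IL10 versus PBS gave 2 in Arg1-type, 0 in Cd163-type and 1 in Cx3cr1-type clusters and 2 by the best list, in place of 5. In tumor cells, IL10/2-Trikine versus PBS gave 1 with the margin rule in place of 0, IL10/2-Trikine versus mono-IL10 gave 5 by the best list in place of 8, and mono-IL10 versus PBS gave 2 by DESeq2, 2 with 30 components and 0 with the margin rule in place of 1. The cause was not tested.

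With each mouse left out in turn, the counts ranged from 0 to 1 (dendritic cells, IL10/2-Trikine versus mono-IL10), 0 to 2 (dendritic, mono-IL10 versus PBS), 0 to 1 (fibroblasts, IL10/2-Trikine versus mono-IL10), 1 to 4 (macrophages, IL10/2-Trikine versus PBS), 0 to 1 (macrophages, IL10/2-Trikine versus mono-IL10), 3 to 5 (macrophages, mono-IL10 versus PBS), 5 to 8 (tumor cells, IL10/2-Trikine versus mono-IL10) and 0 to 5 (tumor cells, mono-IL10 versus PBS). The share of all genes called in these fits is not given. The tests of a difference between classes ranged from 0 to 8. For tests that did not use the left-out mouse, only the adjustment moved. The monocyte-like share of IL10/2-Trikine minus PBS ranged from -2.1 to -1.47 percentage points, and without IL10/2-Trikine mouse 3 it passed the threshold (exact permutation test, adjusted p = 0.0476). Of single-member calls, 126 of the values under other settings stayed on their side of the threshold and 30 did not, and 203 and 37 with a mouse left out.

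No paired analysis was possible because the labels number no mice and a hashtag number marks an antibody, not a pair. Depth limited *Cfb* most, with 6 to 18 UMIs a group in dendritic cells.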

Other observations

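Several unnamed clusters held macrophage complement together with genes of other cells. Those led by T or NK genes, such as cluster 5 (*Cd8a*, *Themis*), cluster 14 (*Gzma*, *Klra8*) and cluster 48 (*Il2ra*, *Foxp3*), held 1482, 1629 and 1706 CPM of *C1qa*, while the named T or NK clusters held 80.6 to 210. Cluster 25, led by *Cdh6* and *Onecut2* like tumor cells, held 795 CPM of *C1qa* beside 798 of *C3*. Outside the alternative runs, these clusters entered no comparison of treatments.

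*Cfd*, the protease factor D of the alternative pathway, had 841 UMIs in tumor cells, and all 841 lay in 1 barcode of PBS mouse 2. Its mean of 4.91 CPM in the PBS group thus came from 1 cell, and it had 0 UMIs in the dendritic cells and fibroblasts of every mouse and 6 in macrophages. It was picked out after its values were seen.

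Neutrophils, with 189 PBS, 423 mono-IL10 and 21 IL10/2-Trikine cells, held *C5ar1* at 768 ± 101 CPM in PBS and 603 ± 111 in mono-IL10, with overlapping mice, and 749 in the single IL10/2-Trikine mouse with enough cells. Endothelial cells held *C1qa* at 154 ± 80.0, 70.7 ± 12.9 and 159 ± 88.3 CPM in the 3 groups, beside macrophage marker sums of 798 to 2156, 438 to 783 and 434 to 2263.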
